A study of Mus musculus with 6 samples.

Results

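The genes described here are 53 mouse transcription factors of embryonic development, among them Pax, Lhx, Nkx, Dlx, Zic and Msx genes, of the kind that Polycomb complexes are known to occupy in many cell types. The genes were listed by name, with no threshold on a measured value, but the list was drawn up with earlier results of these data known. They are 53 of the 47042 genes, 20665 of them protein-coding, that the RefSeq table places on the autosomes of the mouse build mm10 (GRCm38.p6). For each gene the 1-kb windows over its span plus 10 kb on either side were read. The assay was T-WGBS, whole-genome bisulfite sequencing of libraries cut and tagged by a transposase, which needs little DNA; bisulfite converts unmethylated cytosines and leaves methylated ones. The samples were endothelial cells sorted from the lungs of wild-type mice, 3 titled aged and 3 titled mAdu. The design names ages of 18 and 8 months without tying them to the titles, so aged is read here as 18 months and mAdu as 8 months. The labels give neither the sorting markers nor the sex, nor whether samples stem from different animals. The p-values therefore rest on a spread between samples that may be technical.

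Polycomb repressive complexes keep developmental regulators silent in cells that do not use them, by modifying histone H3 and H2A tails. Their targets typically lie in long CpG-rich stretches of DNA that stay free of methylation, often called methylation valleys or canyons, which can run past both ends of the gene. Gain of methylation at such genes with age is a familiar observation in blood and other tissues. No histone mark and no RNA was measured in these files, so whether Polycomb occupies these genes in the sorted cells was not tested, and the name refers to the class the genes belong to.

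Over all autosomal windows, the 3 aged samples averaged 73.3%, 73.1% and 73.7% methylation and the 3 mAdu samples 73.6%, 73.5% and 73.3%. Read coverage is not in the table, so the depth behind each value is unknown. The endothelial label was checked against the bodies of marker genes, whose median methylation was lowest for 12 endothelial markers such as Cdh5 and Pecam1, at 46.6% in aged and 45.4% in mAdu samples. These 12 bodies ranged from 3.72% to 78.0% in aged and from 4.89% to 78.1% in mAdu samples. A low body was thus not common to all of them, and the median alone does not settle the cell type. Bodies of 10 epithelial markers had a median of 66.7% in both groups, those of 9 haematopoietic markers 70.6% in aged and 70.9% in mAdu samples, and those of 10 mesenchymal markers 71.5% in aged and 72.8% in mAdu samples. The mean level over the bodies of each marker list overlapped between the groups, spanning for example 71.0% to 71.9% in aged and 70.6% to 71.9% in mAdu samples for the haematopoietic list. At gene ends the mean over the 10 mesenchymal markers did not overlap, at 32.6%, 32.1% and 32.4% in aged samples against 31.5%, 32.001% and 31.0% in mAdu samples, and 8 of these 10 ends were higher in aged samples, with a median difference of 1.04 points. The means over the ends of the endothelial, epithelial and haematopoietic markers overlapped.

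The ends of these genes were nearly free of methylation in lung endothelial cells of both groups. The end of a gene was taken as the less methylated of its edges, from 1000 bp outside to 500 bp inside. Its median over the 53 genes was 3.78% in aged and 3.32% in mAdu samples, against 34.3% in aged and 34.4% in mAdu samples over all protein-coding genes. In 38 of the 46 genes with an annotated strand the less methylated edge was the annotated start. The low level ran on into the genes: the median body was at 12.7% in aged and 12.8% in mAdu samples, against 73.3% in aged and 73.4% in mAdu samples over protein-coding genes. Bodies could be measured in 50 genes, since Gsc, Neurog1 and Olig3 are too short to hold 3 inner windows. Of the other edges, valued in 52 genes, the median was 20.1% in aged and 19.8% in mAdu samples.

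Promoter sequence was held for 46 of the 53 genes. The most CpG-dense annotated promoter of each, taken from 250 bases before to 50 bases after the start, held a median of 19.5 CG dinucleotides, and 84.8% of the 46 held at least 10, against a median of 15 and 60.9% for 16457 protein-coding genes. The 250 bases before the start are shown for 3 genes that mark the range: Lhx2, whose end had the smallest p in the comparison of the groups, Pax8, the most methylated end of all, and Nkx6-1, the least methylated end for which a sequence was held. The sequences are from RefSeq on GRCm38.p6, written 5′ to 3′ on the strand of the gene, with each CG in capitals. Lhx2 lies on the plus strand at chr2:38339031-38339280, Pax8 on the minus strand at chr2:24475600-24475849 and Nkx6-1 on the minus strand at chr5:101664712-101664961.
Lhx2: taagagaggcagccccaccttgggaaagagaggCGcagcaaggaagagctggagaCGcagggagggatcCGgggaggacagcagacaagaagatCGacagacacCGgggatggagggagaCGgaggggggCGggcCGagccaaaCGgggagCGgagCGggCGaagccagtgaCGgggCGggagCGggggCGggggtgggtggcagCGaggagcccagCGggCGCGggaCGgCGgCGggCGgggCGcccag
Pax8: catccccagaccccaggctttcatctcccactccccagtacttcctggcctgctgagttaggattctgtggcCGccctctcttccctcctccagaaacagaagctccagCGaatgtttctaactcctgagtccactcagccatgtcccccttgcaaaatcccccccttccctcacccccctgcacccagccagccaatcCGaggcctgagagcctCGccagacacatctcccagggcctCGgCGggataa
Nkx6-1: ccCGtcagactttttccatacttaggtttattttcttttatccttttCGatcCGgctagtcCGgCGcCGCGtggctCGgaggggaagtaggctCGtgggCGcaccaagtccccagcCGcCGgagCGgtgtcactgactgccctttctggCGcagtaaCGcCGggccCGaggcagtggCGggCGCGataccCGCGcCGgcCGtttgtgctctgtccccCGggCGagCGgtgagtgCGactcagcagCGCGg
These 250 bases held 25 CG in Lhx2, 6 in Pax8 and 30 in Nkx6-1. The window with the Pax8 promoter was at 86.5% in aged and 87.1% in mAdu samples. The window with the Lhx2 promoter was at 2.62% in aged and 1.42% in mAdu samples, and that of Nkx6-1 at 1.44% in aged and 1.06% in mAdu samples.

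**Figure D1:**
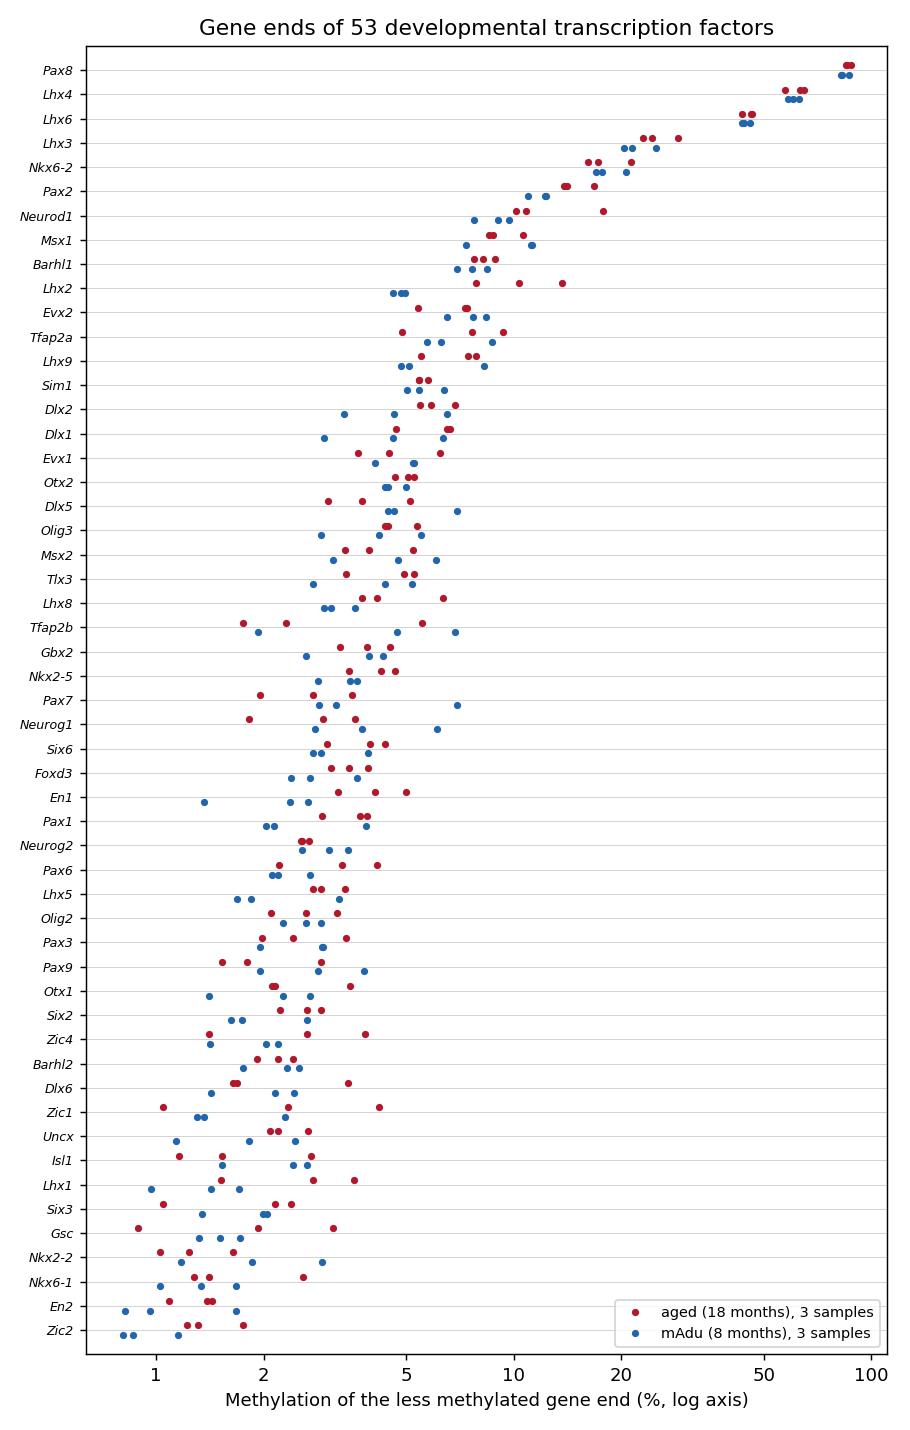
Methylation (%, log axis) of the less methylated end of each of the 53 genes, ordered by level. Red points are the 3 aged samples and blue points the 3 mAdu samples; most genes lie under 10% and Pax8, Lhx4, Lhx6 and Lhx3 stand above 20%.

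Between aged and mAdu samples no gene of the group passed the test at its end, its opposite end, its body, or the interior or border of its unmethylated domain. In limma with Benjamini-Hochberg adjustment over all genes, 0 of 53 ends had an adjusted p under 0.05, against 0.0153% of all 45661 ends, and the smallest adjusted p was 0.954. At an unadjusted p under 0.05, 3 ends were higher in aged samples and 0 lower, against 2.28% and 2.69% of all ends. Of the 53 ends, 38 had the higher mean in aged samples and 15 the lower, with a median difference of 0.468 percentage points, and 49.9% of all ends had the higher mean in aged samples. Both Zic1 and Zic4 are among the 38, and their ends share windows. In 6 ends, or 11.3%, all 3 aged samples lay above all 3 mAdu samples, against 4.95% of all ends. In 0 ends did all aged samples lie below, against 5.18% of all ends. Among 5720 other protein-coding genes with an end under 20%, 5.26% lay above and 4.83% below. Lists of related genes came closer to the 53. Above and below lay 9.72% and 2.78% of 72 other developmental factors and 10.3% and 2.56% of 39 Hox genes. Of 29 developmental factors of lung and vessels, 10.3% lay above and 0% below.

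The mean over the 53 ends was 8.09%, 8.57% and 8.36% in the aged samples, against 7.68%, 7.78% and 7.84% in the mAdu samples. The aged samples were all above the mAdu samples. The mean gives weight to the largest differences, 5.82 points at Lhx2, 4.08 at Neurod1, 3.11 at Lhx3 and 3.07 at Pax2, while 15 ends were lower in aged samples. Whether the means separate without those genes was not tested. The mean over the other low ends was 8.54%, 8.62% and 8.53% in aged samples and 8.56%, 8.62% and 8.50% in mAdu samples, which overlap. The ends of mesenchymal markers moved the same way, as given above, and their part in this result was not tested. The direction was already known from an earlier look at a similar list in the same data, so it is a description and not a test.

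**Figure D2:**
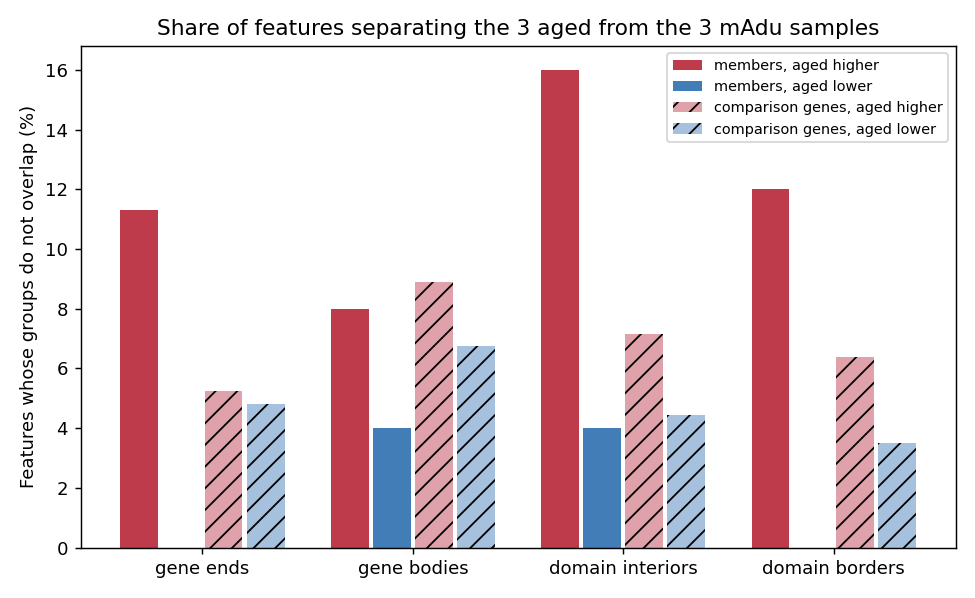
Share of features (%) in which all 3 aged samples lay above (red) or below (blue) all 3 mAdu samples, for the developmental factors (plain bars) and comparison genes (hatched bars: other protein-coding genes with an end under 20% for ends, other protein-coding genes with a domain of 5 kb or more for bodies, interiors and borders). The plain red bars stand at 11.3% for ends, 8% for bodies, 16% for interiors and 12% for borders, and the hatched red bars at 5.26%, 8.91%, 7.14% and 6.39%. The same share in other developmental factors, not drawn, was 9.72%, 16.1%, 12.9% and 2.86%.

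The 7 Pax genes, paired-domain factors of eye, kidney, muscle and axial skeleton, held both the longest unmethylated domain, as long as windows absent from the table end a run, and the only gene without one. Pax2, a kidney and optic stalk factor at chr19:44746601-44838269, had an end at 14.1%, 16.8% and 13.8% in aged samples, against 12.3%, 10.96% and 12.2% in mAdu samples. The aged samples were all higher, by 3.07 points (SE 0.952, unadjusted p = 0.016 and adjusted p = 0.965 in limma), and by 1.04 points with an end that began 500 bp outside. Pax8, its paralog in kidney and thyroid, had an end at 86.0% in aged and 84.0% in mAdu samples and a body at 76.6% in aged and 76.8% in mAdu samples, the highest of the group at both. Of the other Pax ends, Pax7, a factor of muscle progenitors, had the largest difference, at 2.74%, 3.52% and 1.96% in aged samples, against 2.85%, 6.93% and 3.18% in mAdu samples. A single mAdu sample was high there and the groups overlapped (limma adjusted p = 0.968), and the difference of -1.58 points was -0.520 with the wider end, from 2000 bp outside to 1000 bp inside. The Pax7 domain interior ran the other way without overlap (limma adjusted p = 0.923). It was at 3.75%, 3.65% and 3.69% in aged samples, against 2.70%, 3.51% and 3.32% in mAdu samples. Its paralog Pax3, which serves neural crest and muscle, averaged 2.60% in aged and 2.59% in mAdu samples.

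Pax9, a factor of pharyngeal pouches and teeth at chr12:56691693-56712824, had an end at 2.07% in aged and 2.87% in mAdu samples, while its body was at 33.04%, 33.4% and 31.8% in aged samples, against 31.2%, 31.5% and 30.0% in mAdu samples. The body values of the groups did not overlap, with a difference of 1.81 points (SE 0.748, limma adjusted p = 0.975). Its paralog Pax1, a sclerotome factor, had an end at 3.501% in aged and 2.68% in mAdu samples and a body at 5.02% in aged and 5.12% in mAdu samples. Pax6, the eye and pancreatic islet factor, had an end at 3.21% in aged and 2.33% in mAdu samples. Its body was at 19.0%, 18.2% and 18.9% in aged samples, against 19.1%, 19.5% and 19.0% in mAdu samples. The aged samples were the lower ones, by 0.517 points (SE 0.475, limma adjusted p = 0.986).

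The 9 LIM-homeodomain genes, factors of neurons, pituitary, kidney and gonad, had a median end of 6.94% in aged and 4.80% in mAdu samples, and 8 of 9 ends had the higher mean in aged samples. Lhx2, a forebrain, eye and hair follicle factor at chr2:38339271-38369737, had the smallest p of the 53 ends. Its end was at 13.7%, 10.4% and 7.83% in aged samples, against 4.97%, 4.603% and 4.83% in mAdu samples. The mAdu samples lay close together and all aged samples were above them, with a difference of 5.82 points (SE 1.39, unadjusted p = 0.005 and adjusted p = 0.954 in limma). With an end from 2000 bp outside to 1000 bp inside, the difference was 2.76 points. The difference lay in the window just before the promoter shown above, at chr2:38338001-38339000, which was at 24.3%, 17.0% and 14.6% in aged samples, against 8.64%, 7.69% and 8.21% in mAdu samples. The Lhx2 body was at 24.4%, 23.9% and 23.4% in aged samples, against 22.3%, 22.2% and 24.0% in mAdu samples, and overlapped.

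Lhx1, a factor of kidney and head formation, had an end at 2.75%, 1.52% and 3.58% in aged samples, against 1.42%, 0.968% and 1.71% in mAdu samples. Those groups overlapped (1.25 points, SE 0.596, limma adjusted p = 0.965, and 0.679 points with the wider end). Lhx8, a basal forebrain factor, was at 3.76%, 4.14% and 6.34% in aged samples, against 3.60%, 2.95% and 3.09% in mAdu samples. The groups did not overlap, though the lowest aged and the highest mAdu sample were close. The pituitary and motor neuron factors Lhx3 and Lhx4 had methylated ends, Lhx3 at 25.4% in aged and 22.3% in mAdu samples and Lhx4 at 61.8% in aged and 60.5% in mAdu samples. Lhx6, a factor of cortical interneurons, had an end at 45.4% in aged and 44.5% in mAdu samples.

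The Lhx6 body was at 63.2%, 64.2% and 64.8% in aged samples, against 66.6%, 65.6% and 65.6% in mAdu samples. All aged samples were lower, by 1.85 points (SE 0.664, unadjusted p = 0.032 and adjusted p = 0.951 in limma). The interior of its short domain was at 2.39%, 2.77% and 3.003% in aged samples, against 3.05%, 4.22% and 3.31% in mAdu samples, also without overlap (SE 0.459, limma adjusted p = 0.923). Isl1, a factor of motor neurons and heart progenitors, had a domain interior at 3.73%, 3.83% and 4.10% in aged samples, against 3.75%, 4.98% and 4.85% in mAdu samples. These overlapped, and with domains drawn at 30% in place of 20% the Isl1 difference turned from -0.639 to 0.724 points, and it was -0.213 points at 10%. Lhx5 and Lhx9, factors of forebrain and gonad, had ends at 3.004% and 6.94% in aged samples and 2.26% and 6.07% in mAdu samples.

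Six2, Six3 and Six6, factors of nephron progenitors, forebrain and eye, had ends under 5% in every sample, and the means of all 3 genes were higher in aged samples without separation of all samples. Six3, a forebrain and eye factor, had a body at 1.83% in aged and 1.84% in mAdu samples. The body of Uncx, a factor of the axial skeleton, was at 1.60% in aged and 2.18% in mAdu samples, so that Uncx had the lowest body in aged and Six3 in mAdu samples. Six2, the nephron progenitor factor next to Six3 on chromosome 17, had a body at 38.9% in aged and 39.0% in mAdu samples. Six6, its relative in eye and pituitary, had an end at 3.78% in aged and 3.18% in mAdu samples.

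Of the 4 Nkx genes, Nkx2-5 and Nkx6-2 had differences in places other than the end. Nkx2-5, the heart progenitor factor at chr17:26838664-26844988, had a domain interior at 7.35%, 7.62% and 6.98% in aged samples, against 6.29%, 5.63% and 5.67% in mAdu samples. All aged samples were higher, by 1.45 points (SE 0.532, unadjusted p = 0.031 and adjusted p = 0.923 in limma), and by 0.941 points with domains drawn at 10% in place of 20%. Nkx6-2, an oligodendrocyte and spinal cord factor at chr7:139579376-139582797, had a body at 40.3%, 41.1% and 40.2% in aged samples, against 39.2%, 38.2% and 38.3% in mAdu samples. Again the groups did not overlap (1.98 points, SE 0.649, unadjusted p = 0.022 and adjusted p = 0.935 in limma). Its domain interior was at 4.39%, 4.79% and 4.62% in aged samples, against 3.36%, 3.95% and 3.36% in mAdu samples, a difference of 1.04 points that was 0.236 with domains drawn at 30%. Its end averaged 18.2% in aged and 18.4% in mAdu samples.

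Nkx2-2, a factor of ventral spinal cord and islets, had the lower mean in aged samples at its end, body and domain interior. Its end was at 1.23%, 1.02% and 1.64% in aged samples, against 1.17%, 2.90% and 1.85% in mAdu samples. Its body was at 14.3%, 13.5% and 14.7% in aged samples, against 14.8%, 15.0% and 14.3% in mAdu samples, and its domain interior at 3.13%, 2.88% and 3.19% in aged samples, against 2.92%, 3.97% and 3.79% in mAdu samples. The groups overlapped in all of these, and the limma adjusted p was 0.974 at the end. Nkx6-1, the beta cell and motor neuron factor, had an end at 1.75% in aged and 1.34% in mAdu samples.

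The 6 basic helix-loop-helix genes, which commit progenitors to neuronal or glial fates, were split at their ends, with 3 higher and 3 lower in aged samples. Neurod1, a factor of neurons and endocrine cells at chr2:79452637-79456636, had an end at 10.8%, 17.7% and 10.2% in aged samples, against 9.70%, 7.76% and 9.02% in mAdu samples. The groups did not overlap, and the size of the gap came mostly from the second aged sample (4.08 points, SE 2.005, limma adjusted p = 0.965). In the window before its start, at chr2:79457001-79458000, that sample was at 31.5% and the others at 19.95% and 18.5% in aged and 16.9%, 13.8% and 15.8% in mAdu samples. Neurog1, a sensory neuron determination factor, had an end at 1.82%, 2.92% and 3.59% in aged samples, against 3.76%, 6.12% and 2.78% in mAdu samples. These overlapped, and the difference of -1.45 points was -0.506 with the wider end and -0.374 with the end that began 500 bp outside.

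Neurog2, its relative in cortex and sensory ganglia, had a domain interior at 5.43%, 6.09% and 6.76% in aged samples, against 4.54%, 3.99% and 5.25% in mAdu samples. The aged samples were all higher (1.501 points, SE 0.601, unadjusted p = 0.043 and adjusted p = 0.923 in limma), by 0.558 points with domains drawn at 10%, whereas the Neurog2 end was at 2.59% in aged and 3.01% in mAdu samples. Olig2, the motor neuron and oligodendrocyte factor, had an end at 2.64% in aged and 2.59% in mAdu samples, and Olig3, a dorsal spinal cord factor, at 4.72% in aged and 4.20% in mAdu samples. Sim1, a hypothalamic factor, had an end at 5.55% in aged and 5.62% in mAdu samples.

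The 6 genes of head patterning, Otx1, Otx2, En1, En2, Gbx2 and Gsc, all had the higher mean end and the higher mean domain interior in aged samples. En1, a midbrain-hindbrain and limb factor at chr1:120602487-120607991, had an end at 4.10%, 5.01% and 3.23% in aged samples, against 1.36%, 2.66% and 2.37% in mAdu samples. All aged samples were higher, by 1.98 points (SE 0.610, unadjusted p = 0.016 and adjusted p = 0.965 in limma), and by 0.918 points with an end from 2000 bp outside to 1000 bp inside. Its body was at 5.75%, 4.75% and 4.603% in aged samples, against 4.50%, 4.19% and 3.98% in mAdu samples, which did not overlap either. Its paralog En2 had an end at 1.31% in aged and 1.15% in mAdu samples.

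Otx1, a forebrain and inner ear factor, had a domain interior at 7.59%, 6.89% and 7.18% in aged samples, against 6.28%, 5.85% and 5.78% in mAdu samples. The groups did not overlap (1.25 points, SE 0.525, limma adjusted p = 0.923), and the difference was 0.744 points with domains drawn at 10%. The ends of Otx1 and of Otx2, which is needed for the anterior head, were at 2.58% and 5.001% in aged samples and 2.12% and 4.602% in mAdu samples. Gbx2, which sets the hindbrain side of the midbrain-hindbrain border, had an end at 3.89% in aged and 3.63% in mAdu samples, and Gsc, the organizer gene, at 1.98% in aged and 1.51% in mAdu samples.

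Of the 8 Dlx, Msx and Evx genes, homeobox factors of face, limb and interneurons, 3 ends were higher and 5 lower in aged samples. Dlx5 had an end at 3.03%, 5.12% and 3.76% in aged samples, against 6.93%, 4.62% and 4.45% in mAdu samples, with overlap (SE 0.869, limma adjusted p = 0.967), and the difference of -1.37 points was -0.108 with the end that began 500 bp outside. Its neighbour Dlx6 had a body at 5.18%, 5.32% and 6.53% in aged samples, against 6.75%, 8.00% and 5.78% in mAdu samples, again with overlap. All 23 windows present over the Dlx6 locus were under 20% in the mean of the samples. Dlx1 and Dlx2 had ends at 5.94% and 6.07% in aged samples and 4.62% and 4.83% in mAdu samples. Msx1 and Msx2, factors of face and limb, had ends at 9.28% and 4.18% in aged samples and 9.93% and 4.63% in mAdu samples, and Evx1 and Evx2 at 4.80% and 6.70% in aged samples and 4.86% and 7.52% in mAdu samples.

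The 3 Zic genes, zinc-finger factors of the dorsal neural tube, had ends of 2.53%, 1.43% and 2.63% in aged samples and 1.65%, 0.940% and 1.88% in mAdu samples for Zic1, Zic2 and Zic4. Zic1 and Zic4 overlap at their start edges, so their ends share windows and are not separate observations. The Zic2 end was at 1.75%, 1.22% and 1.31% in aged samples, against 0.806%, 0.860% and 1.15% in mAdu samples. These did not overlap, with a difference of 0.487 points (SE 0.349, limma adjusted p = 0.968). The remaining 7 genes were Tfap2a, Tfap2b, Uncx, Barhl1, Barhl2, Foxd3 and Tlx3, of which 5 ends were higher and 2 lower in aged samples and none separated the groups. Tfap2b, a factor of neural crest and kidney, had a domain interior at 3.34%, 4.25% and 3.95% in aged samples, against 4.15%, 5.72% and 4.56% in mAdu samples, with overlap. Its paralog Tfap2a had an end at 7.28% in aged and 6.88% in mAdu samples and that of Tfap2b was at 3.21% in aged and 4.50% in mAdu samples. Barhl1 and Barhl2, factors of cerebellum and retina, had ends at 8.27% and 2.17% in aged samples and 7.67% and 2.19% in mAdu samples. Foxd3, a neural crest factor, was at 3.48% in aged and 2.90% in mAdu samples, Tlx3, a sensory neuron factor, at 4.53% in aged and 4.10% in mAdu samples, and Uncx at 2.31% in aged and 1.80% in mAdu samples.

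Over the 50 bodies, 29 had the higher mean in aged samples and 21 the lower, with a median difference of 0.134 points, while 47.4% of all bodies were higher. By limma 0 of 50 passed, against 0.00346% of all 28922 bodies, and at an unadjusted p under 0.05 there were 1 higher and 1 lower, against 2.24% and 2.84% of all bodies. In 4 bodies all aged samples lay above the mAdu samples, against 4.53% of all bodies, and in 2 below, against 5.55% of all bodies. Bodies of other protein-coding genes with a domain of 5 kb or more lay above in 8.91% and below in 6.74%, and those of other developmental factors above in 16.1% and below in 0%. The 4 were Nkx6-2, Pax9, En1 and Pax2, and the 2 were Lhx6 and Pax6. Opposite ends were split evenly, with 26 higher and 26 lower, and 48.9% of all opposite ends were higher. By limma 0 of 52 passed, against 0.0117% of 42716, with 0 higher and 1 lower at an unadjusted p under 0.05, against 2.25% and 2.63% of all opposite ends. All aged samples lay above in 1 opposite end and below in 3, against 4.68% and 5.39% of all opposite ends. The 1 was that of Tlx3 and the 3 were those of Pax7, Pax8 and Neurog1.

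The unmethylated domain of a gene was taken as the longest run of adjacent windows under 20% that touched the gene or its 10-kb flanks. A domain was found for 52 of the 53 genes, Pax8 being the exception, and they formed 50 distinct domains because Dlx1 and Dlx2 share one, as do Dlx5 and Dlx6. Their sizes had a median of 11.9 kb over the 52 genes, against 2 kb over 16863 protein-coding genes with a domain in any sample. Of the 52, 48 or 92.3% were 5 kb or longer and 31 or 59.6% were 10 kb or longer, against 5.06% and 1.04% of the protein-coding genes. Hox genes had a median of 11 kb and 72 other developmental factors a median of 9 kb.

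With absent windows ending a run, the domain of Pax6 was the longest, 31 kb at chr2:105659001-105690000, and reached past the promoter side of the gene. Next came Barhl2 at 25 kb, Uncx at 25 kb and Dlx1 with Dlx2 at 23 kb, each of which held the whole gene. The shortest were Lhx6 and Nkx6-2 at 2 kb and Lhx3 and Isl1 at 4 kb, followed by Six6 and Barhl1 at 5 kb. Paralogs could differ widely, as Nkx6-1 with 9 kb and Nkx6-2 with 2 kb, Pax2 with 16 kb and Pax8 with none, and Lhx4 with 12 kb and Lhx3 with 4 kb. Barhl2 with 25 kb stood against Barhl1 with 5 kb. In the other pairs Zic4 had 20 kb and Zic1 12 kb, Six3 had 21 kb and Six2 14 kb, Olig2 had 12 kb and Olig3 6 kb, and Pax7 had 21 kb and Pax3 18 kb. Pax9 had 15 kb and Pax1 11 kb, Tfap2b had 18 kb and Tfap2a 14 kb, and Msx1 had 10 kb and Msx2 6 kb. En1 had 15 kb and En2 12 kb, Otx2 had 10 kb and Otx1 7 kb, Evx2 had 11 kb and Evx1 8 kb, and Neurog1 had 12 kb and Neurog2 11 kb. The domain held both edges of the gene in 15 genes and 1 edge in 34, whereas in Lhx2, Lhx4 and Dlx6 the longest run held neither edge. At Zic4, Tfap2a and Msx2 the 1 edge held was the one away from the annotated start. The run covered 52.1%, 4.91% and 2.03% of these genes, so their sizes are not those of a domain over the start. Summed over the loci, with windows shared by neighbouring loci counted at each, 202 windows had no value, in 39 of the genes. Such a window ended a run. With runs carried across them the shared Dlx5 and Dlx6 domain measured 35 kb in place of 14 kb, longer than that of Pax6, and that of Lhx2 17 kb in place of 7 kb. The order of some pairs then turned, with Pax1 at 16 kb and Pax9 at 15 kb, and En2 at 20 kb and En1 at 15 kb. Zic1 and Zic4 both measured 23 kb, so these contrasts depend on the absent windows.

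Domain size did not separate the groups for any gene. Measured in each sample by itself, 22 of the 52 domains (42.3%) had the same size in all 6 samples and 36 (69.2%) kept within 1 kb. These shares were lower than the 52.7% and 76.7% of other protein-coding genes with a domain of 5 kb or more. Of protein-coding genes with a domain in any sample they were 69.5% and 91.4%. The mean size was larger in aged samples for 8 of the 53 genes and smaller for 18, against 15.2% and 15.8% of 29940 genes, and the samples of the groups overlapped in all of them, against 0.391% of those genes with larger and 0.351% with smaller domains in every aged sample. Of 72 other developmental factors 13 had the larger and 22 the smaller mean size in aged samples. Of 849 other protein-coding genes with a domain of 5 kb or more, 151 had the larger and 188 the smaller. The mean over the 53 genes was 12.4, 11.8 and 11.8 kb in the aged samples, against 12.0, 12.5 and 12.2 kb in the mAdu samples. For a single gene the exact two-sided permutation test of 3 against 3 samples cannot give a p below 0.1.

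**Figure D3:**
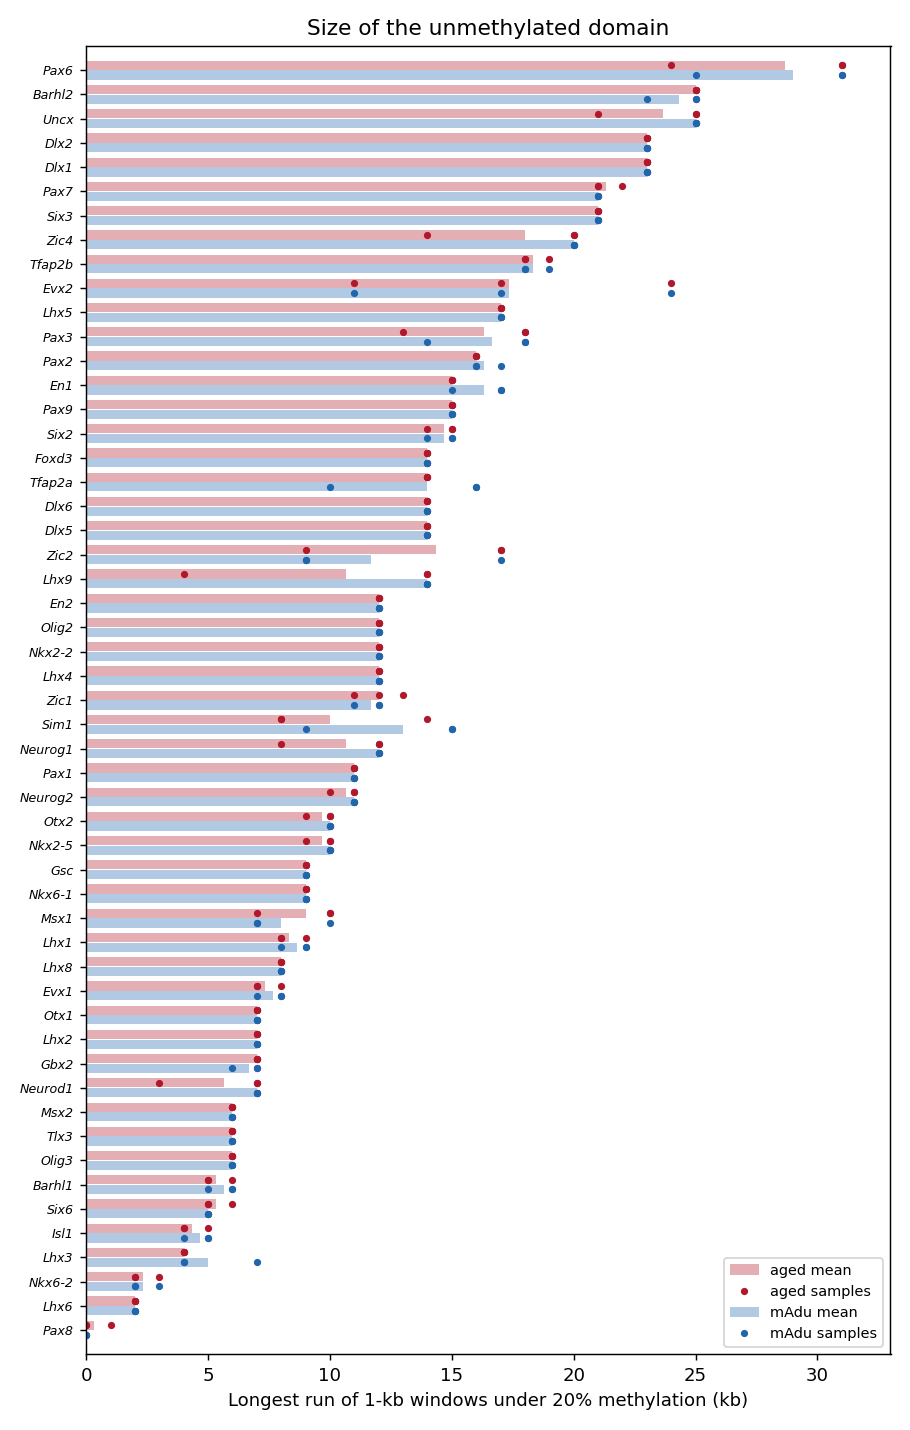
Size (kb) of the longest run of 1-kb windows under 20% methylation at each gene, measured in each sample. Bars are group means and points the single samples, aged in red above mAdu in blue; points of equal size lie on each other, and the groups overlap at every gene.

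The largest losses of domain size were at Lhx9, Sim1 and Zic4. Lhx9 measured 14, 4 and 14 kb in aged samples, against 14 kb in each mAdu sample, so that the loss came from the second aged sample. Sim1 measured 14, 8 and 8 kb in aged samples, against 9, 15 and 15 kb in mAdu samples, with overlap (exact permutation p = 0.2). Zic4 measured 20, 14 and 20 kb in aged samples, against 20 kb in each mAdu sample. The second aged sample was also the short one at Neurod1, with 3 kb, and at Neurog1, with 8 kb, where each of the other samples had 7 kb and 12 kb. The largest gains were at Zic2, with 17, 17 and 9 kb in aged samples against 17, 9 and 9 kb in mAdu samples, at Msx1, with 7, 10 and 10 kb in aged samples against 7, 10 and 7 kb in mAdu samples, and at Barhl2, with 25 kb in each aged sample against 25, 23 and 25 kb in mAdu samples. Both groups held a long and a short form at Zic2 and Msx1.

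Inside the domains the mean level was higher in aged samples for most genes, but no domain passed the test. The median over the 50 distinct domains was 5.14% in aged and 4.84% in mAdu samples, and 37 were higher and 13 lower in aged samples, while 51.6% of all domains were higher. By limma 0 of 50 passed, against 0.0% of all 15648 domains, and 3 were higher and 0 lower at an unadjusted p under 0.05, against 2.31% and 2.26% of all domains. In 8, or 16%, all aged samples lay above all mAdu samples, against 5.6% of all domains, and in 2, or 4%, below, against 5.07%. The 8 belonged to Pax7, Nkx2-5, Nkx6-2, Neurod1, Neurog2, Otx1, Barhl1 and Dlx1 with Dlx2. The 2 belonged to Lhx6 and to Dlx5 with Dlx6. Among 630 other protein-coding domains of 5 kb or more, 7.14% lay above and 4.44% below. The 70 distinct domains of other developmental factors had 48 higher and 22 lower in aged samples, with 12.9% above and 1.43% below. Of 29 domains of lung and vascular developmental factors, 13.8% lay above and 6.90% below. Of 31 domains of Polycomb complex genes, 12.9% lay above and 0% below, and of 18 Hox domains 11.1% and 5.56%. The mean over the 50 interiors was 5.47%, 5.90% and 5.62% in aged samples, against 5.41%, 5.20% and 5.24% in mAdu samples. The groups did not overlap, though the lowest aged and the highest mAdu sample were close. Interiors hold most of the windows of the ends, so the counts at ends and interiors share data.

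The borders, meaning the 2 windows on each side just outside a domain as far as they were present, had a median of 41.2% in aged and 40.4% in mAdu samples at these genes, against 67.8% in both groups over protein-coding genes. Such low borders were not particular to the 53 genes: the median was 40.8% in aged and 41.1% in mAdu samples for other developmental factors, 37.9% in both groups for Hox genes, and 38.3% in aged and 34.2% in mAdu samples for endothelial markers. Of the 50, 32 were higher and 18 lower in aged samples, while 48.2% of all borders were higher, with a median difference of 0.681 points that shrank to 0.0810 points with domains drawn at 30%. By limma 0 of 50 passed, against 0.0128% of 15597, with 1 higher and 0 lower at an unadjusted p under 0.05, against 2.26% and 2.85% of all borders. All aged samples lay above in 6 borders, against 4.51% of all borders, and below in 0, against 5.67%. These 6 belonged to Pax9, Msx2, Pax2, Msx1, En1 and Neurog1.

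The border of Pax9, for which 2 windows were present, was at 63.4%, 61.9% and 61.1% in aged samples, against 59.3%, 58.7% and 56.3% in mAdu samples. All aged samples were higher, by 3.996 points (SE 1.35, unadjusted p = 0.020 and adjusted p = 0.948 in limma), but by 2.41 points with a border of 1 window and by 0.234 with domains drawn at 10%. The border of Msx2 was at 52.7%, 53.1% and 53.7% in aged samples, against 49.9%, 51.5% and 50.2% in mAdu samples, and that of Pax2 at 40.9%, 42.7% and 41.3% in aged samples, against 36.8%, 39.8% and 39.1% in mAdu samples. Neither overlapped, and both had a limma adjusted p of 0.948. With domains drawn at 10%, the difference of 2.62 points at Msx2 was 1.65 (1.52 at 30%) and that of 3.06 points at Pax2 was 0.750. The border of En2, for which only 1 window was present, was at 30.1%, 25.9% and 21.6% in aged samples, against 21.2%, 23.0% and 17.6% in mAdu samples. The groups overlapped, and the En2 difference of 5.31 points was 2.24 with domains drawn at 10%.

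Among borders lower in aged samples, Otx2 was at 47.3%, 45.4% and 45.8% in aged samples, against 46.5%, 49.4% and 49.96% in mAdu samples. Zic4, with 2 windows present, was at 18.2%, 26.2% and 22.7% in aged samples, against 27.3%, 29.1% and 22.8% in mAdu samples. The border shared by Dlx1 and Dlx2 was at 36.8%, 37.1% and 38.7% in aged samples, against 40.01%, 36.9% and 41.3% in mAdu samples. The groups overlapped at all of these. With domains drawn at 10% the differences of -2.43, -3.999 and -1.86 points at Otx2, at Zic4 and at Dlx1 with Dlx2 were -0.759, -0.731 and 0.456.

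Followed window by window, methylation of these genes was low inside the border and higher outside in both groups. A step at the border follows from its definition, as windows inside are under 20% in the mean of the samples and the adjoining one is not. The first window outside was at 41.7 ± 0.584% in aged and 40.8 ± 0.827% in mAdu samples, and the first window inside at 9.03 ± 0.240% in aged and 8.07 ± 0.227% in mAdu samples (SD over the samples, n = 3 each). In the second window inside the means were 4.81% in aged and 4.61% in mAdu samples. The inside values rest on 88 windows at each distance, fewer than 2 for each of the 50 domains, so they do not cover every domain. The first window inside was at 8.80%, 9.28% and 9.02% in aged samples, against 8.33%, 8.00% and 7.89% in mAdu samples, which did not overlap. In 371 other protein-coding domains of 6 kb or more that window was at 8.11 ± 0.352% in aged and 7.84 ± 0.165% in mAdu samples, with overlap. The surroundings differed more than the groups did: 5 kb outside, these genes were at 44.6% in aged and 44.9% in mAdu samples, against 56.8% in aged and 56.6% in mAdu samples for the other long domains and 73.3% in aged and 73.5% in mAdu samples for domains under 6 kb. Fewer windows were present outside, with 83 in the first window and 56 at 5 kb for these genes, so the outside values do not cover every domain either.

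**Figure D4:**
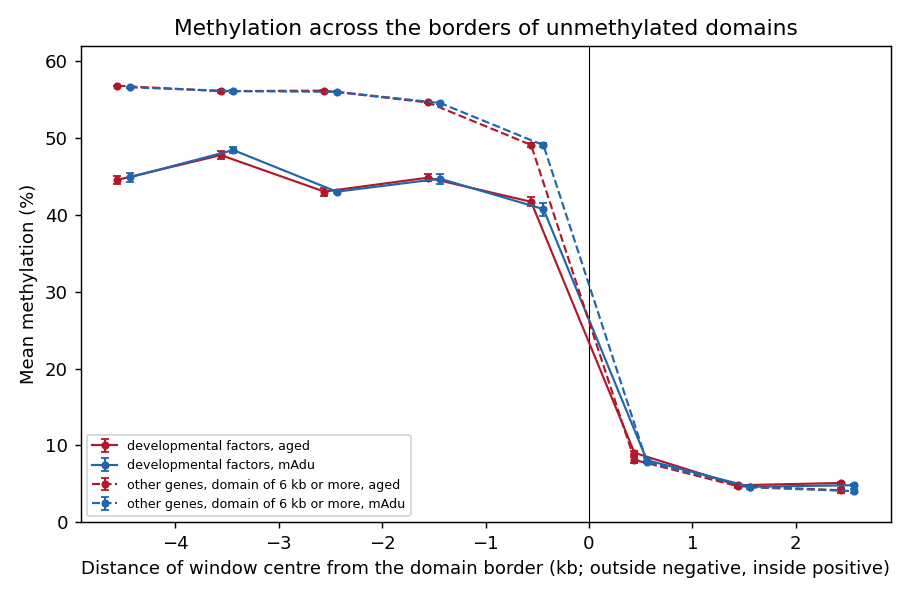
Mean methylation (%) by distance of the window from the domain border (kb, outside negative), for the developmental factors (solid) and other protein-coding genes with a domain of 6 kb or more (dashed), aged in red and mAdu in blue; bars are the SD over 3 samples and red and blue points are set slightly apart. Outside the border the solid lines run between 40.8% and 48.4%, under the dashed lines, and aged and mAdu samples lie close together throughout. The solid points inside rest on 88 windows at each distance and those outside on 83 in the first window and 56 at 5 kb, and they do not cover all 50 domains.

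No single window passed the test. The 53 loci held 1847 distinct windows, of which 0 passed limma's test at an adjusted p of 0.05, against 0.0211% of all 1683697 windows, with 40 higher and 33 lower at an unadjusted p under 0.05, against 2.15% and 2.51% of all windows. Of the 1847, 51.5% had the higher mean in aged samples, against 48.9% of all windows, and 108 lay without overlap above and 89 below, against 4.76% and 5.28% of all windows. The mean over these windows was 37.9% in aged and 37.8% in mAdu samples. Among the 825 windows under 20%, 56.5% had the higher mean in aged samples, against 51.6% of all such windows on the autosomes. Of these, 59 or 7.15% lay without overlap above mAdu, against 5.63% of all such windows, and 35 or 4.24% below, against 4.81%.

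The windows with the smallest p, picked after their values were seen, lay at Sim1, Lhx2 and Lhx5. The Sim1 window at chr10:50910001-50911000, 15.8 kb inside the gene, was at 12.3%, 12.4% and 13.6% in aged samples, against 6.43%, 6.75% and 5.44% in mAdu samples. The samples of each group lay close together and the groups were 6.58 points apart, with a limma adjusted p of 0.390. The Lhx5 window at chr5:120430001-120431000 was at 6.01%, 5.21% and 5.32% in aged samples, against 2.29%, 1.07% and 3.01% in mAdu samples (adjusted p = 0.978). At Tfap2a the window with the smallest p ran the other way, at 8.93%, 8.22% and 4.53% in aged samples, against 23.4%, 12.7% and 16.8% in mAdu samples (limma adjusted p = 0.978).

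**Figure D5:**
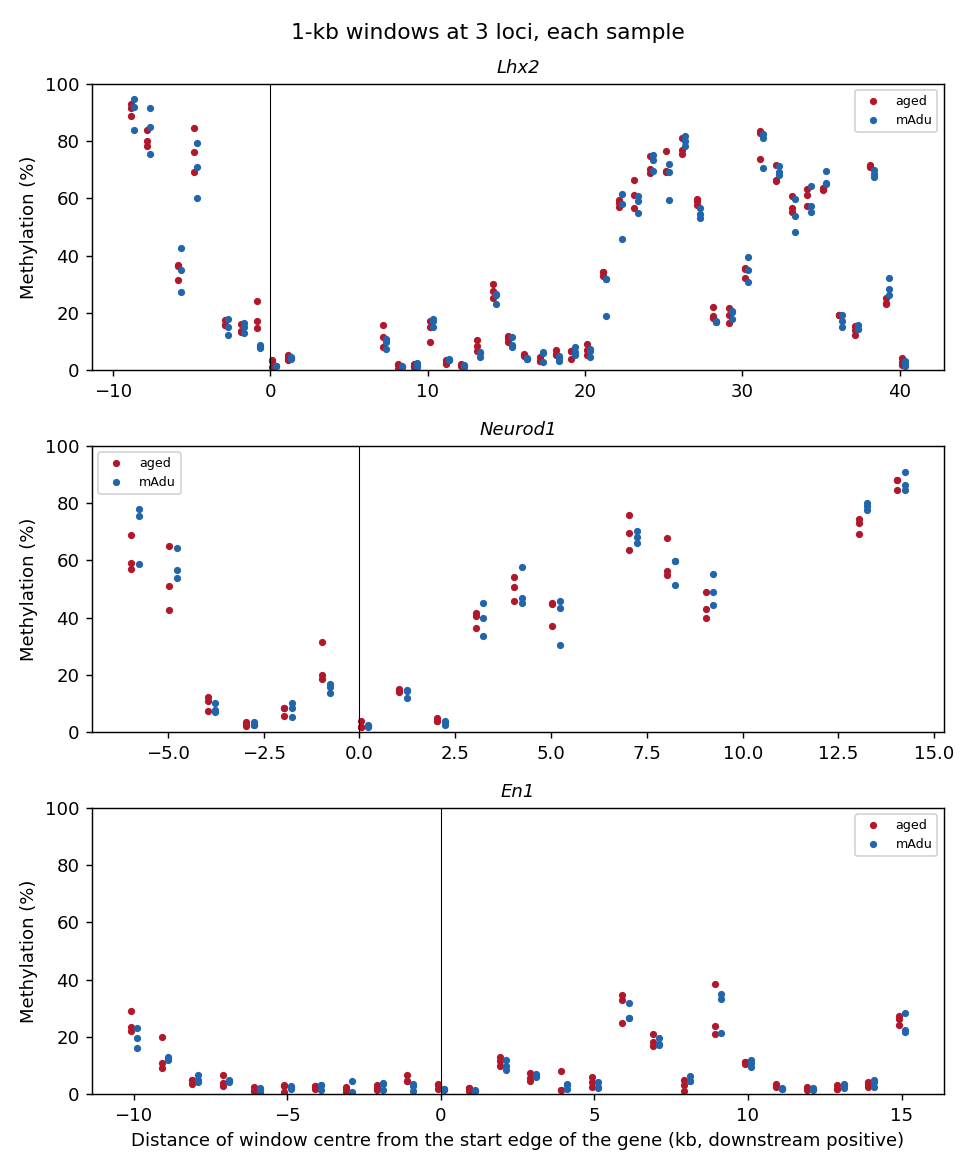
Methylation (%) of each 1-kb window by distance of its centre from the start edge of the gene (kb) at Lhx2, Neurod1 and En1, with every aged sample in red and every mAdu sample in blue, set slightly apart. The red points stand above the blue ones in the window just before the start at Lhx2, where aged samples are at 24.3%, 17.0% and 14.6%, and a single aged sample stands out in the same place at Neurod1, at 31.5%; gaps are windows absent from the table.

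The genes of the machinery itself did not pass either. Of 31 genes of Polycomb complexes and their partners with an end value, 0 passed, 17 ends were higher and 14 lower in aged samples, and the median end was 14.4% in aged and 14.6% in mAdu samples. At an unadjusted p under 0.05 in limma, 1 of these ends was higher and 0 lower. Of 9 genes that write or erase DNA methylation, 0 ends passed and 6 were higher and 3 lower, with 1 higher and 0 lower at an unadjusted p under 0.05. In 72 other developmental factors 45 ends were higher and 27 lower in aged samples, with 0 calls, and 9.72% lay without overlap above and 2.78% below. The 39 Hox genes had 21 ends higher and 18 lower, with 0 calls and 10.3% above and 2.56% below. At an unadjusted p under 0.05 there were 4 higher and 1 lower among the 72, and 1 higher and 0 lower among the Hox genes.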

How the data were processed

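Per the labels' protocols, 30 ng of DNA per sample was used, 3 libraries were made per sample and each was sequenced as paired reads of 100 bp. Reads were processed with BWA 0.7.8 on mm10, per the submitters' processing notes. How methylation was called, filtered by coverage or smoothed is not given in the sources used here. In the deposited table stands the authors' mean methylation of each sample as a fraction (0 to 1) in 1684140 windows of 1000 bp on the 19 autosomes, with neither coverage nor CpG number, so the depth and its counting error are unknown and each window weighed the same. Fractions were multiplied by 100. The 1683697 windows with values in all 6 samples were used.

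Regions are unweighted means of the windows that overlap them. Ends, bodies (at least 3 windows from 500 bp inside each edge), domain interiors, borders and single windows were each fitted over all autosomal genes or windows with limma 3.58.1 (R 4.3.3), using percent values, the group alone as term, a trended variance and Benjamini-Hochberg adjustment with a threshold of 0.05. The fit was tested on simulated data, with features moved by known amounts. Of 50 features moved by 2 points it called 0 at ends, 1 in bodies and 1 in interiors. Of 50 moved by 5 points it called 2, 21 and 23. Opposite ends gave 0 and 0, and borders 0 and 6. Differences as small as most of those given here would therefore mostly not pass. Domain sizes were compared by exact permutation. Differences are aged minus mAdu.

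The 53 genes and the comparison lists were chosen with earlier results of these data known. Named genes are the 4 with the smallest p in each direction for ends, bodies, interiors and borders, the extremes of level and domain size, and paralog pairs; genes without overlap of the groups were added. Alternatives were other end, body, border and domain definitions, a logit scale, centred samples, no variance trend, a replicate block, no extreme windows, and leaving out each sample. Restricting the fits to protein-coding genes and bridging absent windows were chosen after seeing the data.

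Replicate numbers did not pair the samples, so the block is given only among the alternatives.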

Additional observations from a re-analysis of the deposited data

How the results depend on the processing

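Under every alternative that was run, 0 of the 53 genes and 0 of their windows passed, and the adjusted p of the 4 genes of smallest p in each direction at ends, bodies, interiors and borders stayed between 0.868 and 1. Their differences moved with the definition of the region, as given beside them; single alternatives were not tabulated for the other genes described. Counts over all genes did move. Ends called (7) became 11 with a wider end, 3 at annotated starts, 4 on a logit scale, 0 among protein-coding genes only and 0 without extreme windows. Opposite ends called (5) became 9 with a wider end, 2 on a logit scale, 2 among protein-coding genes and 1 without extreme windows. Bodies called (1) became 0 with at least 5 windows, 0 on a logit scale, and 3 with no variance trend, with protein-coding genes only or with centred samples. Borders called (2) became 0 with a border of 1 window, 1 with domains under 10%, and 4 with domains under 30% or centred samples. Windows called (355) became 145 on a logit scale and 59 without extreme windows. With a replicate block, 2 ends, 3 opposite ends and 185 windows were called, the other counts kept within 1.5 times of theirs and no gene of the 53 was called; the deviations of same-numbered samples correlated at -0.0116, -0.0167 and -0.000645, so the numbers do not pair them. The cause of these shifts was not tested.

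The median border difference of 0.681 points became 0.0810 with domains under 30%. The median domain size of 11.8 kb became 7.67 kb with domains under 10%, 12.8 kb under 30%, 12.7 kb with a gap of 1 window allowed and 13.2 kb with absent windows bridged, where the mean difference turned from -0.226 to 0.308 kb, Zic1 alone differing by 14.7 kb. Genes with a larger domain in aged samples numbered 14 under 10%, against 8. The interior of Isl1 turned to 0.724 points under 30% and the border of Dlx1 and Dlx2 to 0.456 under 10%.

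Leaving out 1 sample at a time, ends called ranged from 5 to 20 (20 without aged replicate 1), opposite ends from 5 to 19, bodies from 1 to 9, interiors from 0 to 2, borders from 2 to 5 and windows from 680 to 998. Of the 53 genes, 35 to 38 ends, 25 to 33 bodies, 35 to 40 interiors, 27 to 36 borders and 22 to 30 opposite ends were higher in aged samples. The median difference ranged from 0.337 to 0.509 points at ends, -0.0191 to 0.358 in bodies, 0.229 to 0.337 in interiors, 0.421 to 0.923 at borders and -0.182 to 0.205 at opposite ends, and the mean domain size difference from -0.443 to -0.104 kb.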
